A study of Homo sapiens with 2 samples.

Results

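SET7/9 knockdown in MKN45 cells was read from 1 two-colour oligonucleotide array. Of the 34127 gene probes on it, 20281 (59.4%) were well above background in both dyes and were taken as members, and they covered 14991 genes. For each, the log2 ratio of the Cy5 signal over the Cy3 signal was used, after outlier spots were left out and repeated spots of a probe were averaged. MKN45 is an established cell line from a poorly differentiated gastric adenocarcinoma. The cells received SET7/9 siRNA or negative control siRNA at 50 nM by electroporation, and total RNA was taken 48 hrs later. RNA of the SET7/9 siRNA cells carried Cy5 and RNA of the control siRNA cells carried Cy3, and the dyes were not swapped. Which SET7/9 siRNA was used is not given in the sources used here. MKN74, another established gastric cancer cell line, was treated and labelled in the same way on a second array of the same slide, where 18582 probes met the same rule. With 1 array per cell line there is no replicate of any value and no test, an effect of a dye on a probe cannot be told apart from the knockdown, and an effect of this siRNA on other transcripts cannot be told apart from the loss of SET7/9.

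SET7/9, encoded by SETD7, is an enzyme that adds a single methyl group to H3K4, the lysine of histone H3 tied to active and poised regulatory regions, and to lysines of other proteins, among them RELA of the NF-kB family and E2F1. NF-kB is a family of transcription factors held in the cytoplasm by inhibitor proteins and set free by inflammatory signals, after which it turns on chemokine and cytokine genes and also genes of its own inhibitors. Epithelial cells of the stomach use this system in response to infection and injury.

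SETD7 was probed at separate places in its transcript, and the first 30 bases of each of its probes are shown because the readings at these places differed, as did those of SREK1IP1, whose product binds a splicing regulator of the SR family. Coordinates are on GRCh37.
SETD7, probe at chr4:140427692-140427751, minus strand: cttggttacattttggtttatgataattaa
SETD7, probe at chr4:140453844-140453903, minus strand: gagcttactgcactgttgttacttgattct
SREK1IP1, probe at chr5:64018887-64018946, minus strand: taggtagcccttatgtccactaaagtaaat
SREK1IP1, probe at chr5:64017437-64017496, minus strand: tttgcatctggaactagattatctggcact
At the first SETD7 probe the Cy3 signal was 197 and the Cy5 signal 51.2, a log2 ratio of -1.95. At the second they were 131 and 112, a log2 ratio of -0.23. The software's error of each log2 ratio was 0.28 and 0.21, so that SETD7 fell at the first probe and was about as far from 0 as its error at the second. This error is the software's model for a spot, with a median of 0.21 over the members, and is not a spread between samples. The SREK1IP1 probe at 64017437 fell from 129 to 44.5, a log2 ratio of -1.54, while the other, with signals of 17.5 and 14.5, was at -0.28 with an error of 0.40. In MKN74 the SETD7 probes were at -2.03 and 0.24, and the SREK1IP1 probe at 64017437 at -1.11. In MKN45 each gene passed 1.5-fold at 1 of its probes.

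Most probes were near 0. The median log2 ratio was -0.0011, 81.0% of the member probes lay within 0.25 of 0, and the range was -3.61 to 1.41. A fold of 1.5, which is 0.58 on the log2 scale, was used as the cutoff, and rose and fell are used only past it. It was passed by 165 probes upwards (0.814%) and 328 downwards (1.62%), or, with the median over its probes as a gene's value, by 113 genes upwards (0.754%) and 214 downwards (1.43%). The calls were uneven in signal. Of the lower probes, 86.0% lay in the dimmest quintile of member probes, and of the higher probes 61.2%. The SD of the log2 ratio was 0.37 in that quintile and 0.15 in the brightest one. The pooled SD over the repeated spots of 720 probes was 0.099, which covers variation within the array only. Median GC content was 41.7% in the higher probes, 45% in the lower probes and 43.3% in all members. The part of signal and base content in the calls was not tested.

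**Figure D1:**
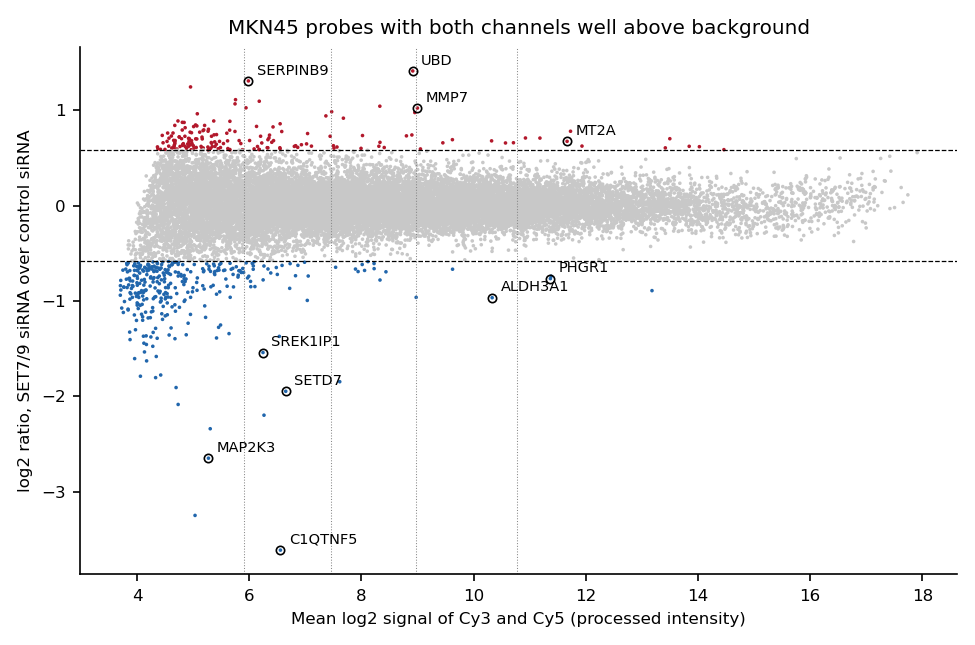
Each point is a member probe of the MKN45 array, with the mean log2 processed signal of both dyes on the x axis and the log2 ratio of SET7/9 siRNA over control siRNA on the y axis; dashed lines mark 1.5-fold, dotted lines part the probes into quintiles by signal, and colour marks the 165 probes above and the 328 below the cutoff. Most of the lower calls sit in the dimmest quintile, and rises and falls of bright probes such as MT2A and PHGR1 are few.

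The cells had the markers of an epithelium. All 10 epithelial markers were measured, among them CDH1, the adhesion protein E-cadherin, at 0.11, EPCAM at 0.0038 and KRT19 at -0.38, and none passed 1.5-fold. Of 14 gastric markers 8 were measured. Of the markers of other cell types, 2 of 8 fibroblast, 3 of 8 leukocyte and 1 of 6 endothelial genes were measured. The Cy3 signal was 47.4 for COL1A1, a collagen of fibroblasts, and 25.2 for CDH5, the cadherin of endothelium. Their part in the results below was not tested. GAPDH was at -0.00029 with an SD of 0.039 over 10 spots, ACTB at 0.17 at 1 probe and at 0.0085 at another, and 18 housekeeping genes had a median of -0.030.

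Of the 14991 genes, 3685 had 2 or more member probes, which read the same RNA at different places and are not replicates of the transfection. Every probe was above 0 in 948 of these genes (25.7%) and below 0 in 1003 (27.2%). Among the 3005 genes with exactly 2 probes, both lay on the same side of 0 in 57.8%, and the log2 ratios of both probes correlated weakly across genes (Pearson 0.17, Spearman 0.20), which are not independent replicates. Every probe was at least 0.32 higher on the log2 scale in 29 genes (0.787%) and at least 0.32 lower in 15 (0.407%). Every probe passed 1.5-fold in IL32, SERPINA3 and RTN4RL1 upwards (0.0814%) and in NTRK2 and ALDH3A1 downwards (0.0543%).

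Some of the genes with every probe higher belong to inflammation. IL32, a cytokine that induces other inflammatory cytokines, rose at both probes, from 73.1 to 125 (log2 ratio 0.78, error 0.23) and from 126 to 249.5 (log2 ratio 0.98, error 0.23). SERPINA3, the acute-phase protease inhibitor alpha-1-antichymotrypsin, had log2 ratios of 0.61, 0.65 and 1.07 at 3 probes, at Cy3 signals between 31.1 and 104. CXCL2, a neutrophil-attracting chemokine, was at 0.73 and 0.56, with Cy3 signals of 201 and 192 and Cy5 signals of 335 and 283. Its neighbour and close relative CXCL1 had log2 ratios of 0.52 at a probe that went from 177 to 254 and 0.55 at a probe that went from 907 to 1328. All of these probes were higher with SET7/9 siRNA. Probes of CXCL1, CXCL2 and CXCL3 were compared by their best ungapped overlap. None matched a probe of another of the 3 genes at more than 46.3% of the overlapping bases. The match of a probe to the RNA of the other genes was not tested. PLAU, the urokinase that activates plasminogen, was higher at both probes, by 0.54 and, over 10 spots with an SD of 0.029, by 0.50. IL2RG, the common gamma chain of interleukin receptors, chosen after its values were seen, had log2 ratios of 0.39 and 0.76. For CD58, the adhesion ligand of CD2 on T cells, they were 0.42 and 0.53.

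Other genes with every probe higher were of mixed function. RTN4RL1, a relative of the Nogo receptor, was at 0.59 and 0.82 but dim, with Cy3 signals of 59.0 and 21.9. SPINK5, an inhibitor of kallikrein proteases of the epidermis, was at 0.45 and 0.51. The homeobox gene HOPX was at 0.46 and 0.47. SYN2, a synapsin, was at 0.47 and 0.54, and NRARP, a Notch target that feeds back on the pathway, at 0.35 and 0.53. For MGC21881, FLJ37786, KIRREL, LOC642980 and OSBPL8 the weaker probe lay between 0.44 and 0.49. In the MKN74 cells 23 of the 29 genes were measured, of which 18 had every probe above 0 and 3 had every probe below 0. Of all genes measured on both arrays 48.5% were above 0 in MKN74 by the median of their probes. The share with every probe above 0 there was not counted. IL32 was at 0.50 and 0.52 there, CXCL1 at 0.49 and 0.51, CXCL2 at 0.72 and 0.77, and the 1 SERPINA3 probe measured was at 0.038. The arrays share the dye orientation, and the differences were not tested.

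Among genes with every probe lower, ALDH3A1, an aldehyde dehydrogenase of stomach and cornea, had bright probes. It went from 3455 to 2069 at 1 probe, a log2 ratio of -0.74, and from 1800.5 to 923 at the other, a log2 ratio of -0.96, with errors of 0.21 and 0.22. After a different background correction and normalization (normexp and loess) it was at -0.73 and -0.83, so that both probes still passed 1.5-fold. In MKN74 neither probe was measured in both dyes. NTRK2, the receptor of brain-derived neurotrophic factor, was at -0.78 and -0.85, but its Cy5 signals were 9.98 and 11.4 and its errors 0.46. CHAC1, which degrades glutathione and is induced by the unfolded protein response, was at -0.43 and -0.78, and at the brighter probe went from 422 to 246. SIRT2, a deacetylase of tubulin and histones, was at -0.34 and -0.45, and SLC20A2, a phosphate transporter, at -0.33 and -0.53. UROS, an enzyme of heme synthesis, had both of its probes at 1 site, at -0.43 and -0.46. ENKUR, KIF18B, SDCCAG8, PSAPL1, TAF5L, TMEM8B, PAIP2B, KIAA1539 and FAM76A had a weaker probe between -0.47 and -0.33. Of the 15 genes 10 were measured in MKN74, and 8 of them had every probe below 0. By the median of a gene's probes 48.5% of all genes were above 0 there. The share of all genes with every probe below 0 in MKN74 was not counted.

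**Figure D2:**
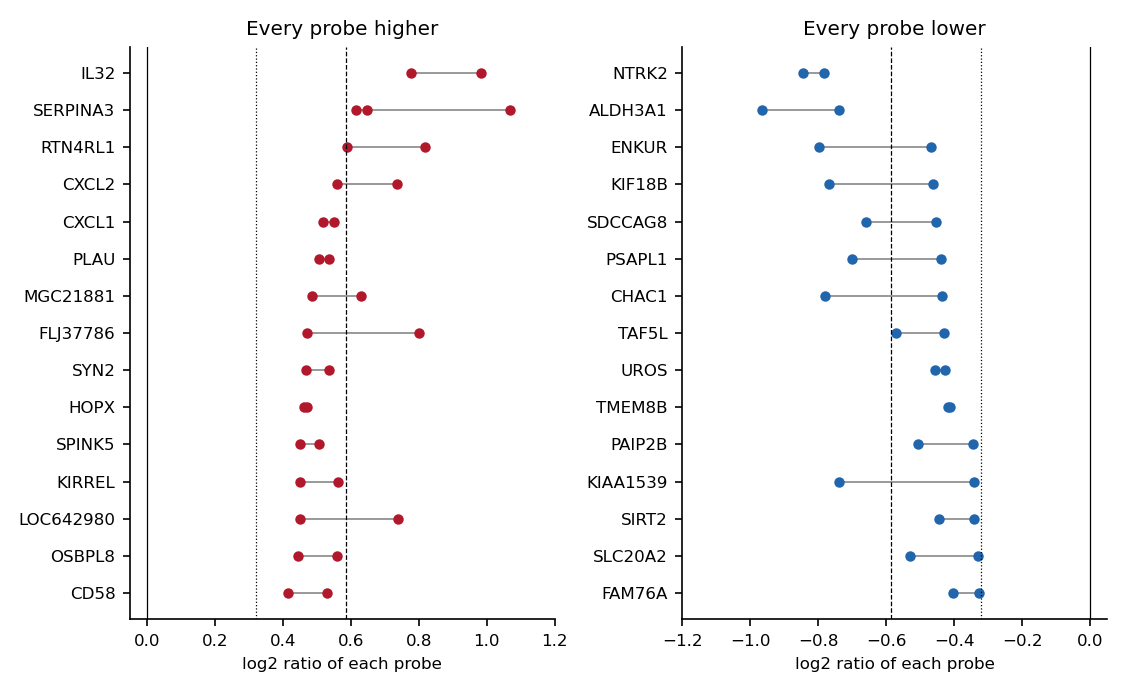
Each dot is the log2 ratio of 1 probe in MKN45, for the 15 genes in each direction whose weakest probe changed most; dotted lines mark 0.32 on the log2 scale and dashed lines 1.5-fold. Every probe of IL32, SERPINA3, RTN4RL1, NTRK2 and ALDH3A1 lies past 1.5-fold.

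Many of the largest single changes had no such agreement. Of 142 genes with a probe past 1.5-fold and another member probe, 94 had another probe within 0.1 of 0 or on the other side of it. Among all genes with 2 or more member probes, 52.9% had every probe on the same side of 0. The share of all such genes with another probe within 0.1 of 0 was not counted. MAP2K3, a kinase of the p38 pathway, fell by 2.65 at a probe whose signals were 96.8 and 15.5, while its 3 other probes lay between -0.037 and 0.053. ERBB3, a receptor of the EGFR family, fell by 2.34 at a probe that went from 88.9 to 17.6, and its other probes, of higher signal, were at -0.067 and 0.017. ACTL8 was at -1.85 and 0.15, TP53TG3 at -1.77 and 0.39, FLJ35390 at -1.47 and 0.25, and ARHGAP21 at -1.18 and 0.27. COQ5 was at -1.13 at a dim probe and at -0.051 and 0.046 at others with Cy3 signals of 1882 and 1762. DPF3, a subunit of the BAF chromatin remodelling complex, was at 1.24 at 1 probe and at -0.049 and 0.38 at others. The probe that changed most was set aside in the 42 genes with a rise and the 100 with a fall. The median of the remaining probes lay on the same side of 0 in 64.3% and 53% of them. Both probes lay on the same side of 0 in 57.8% of all genes with exactly 2 probes. The 2 largest falls, C1QTNF5 at -3.61 (329 to 26.9) and DENND2C at -3.25 (101 to 10.6), and the fall of VTN, the adhesion protein vitronectin, at -2.20 (165 to 35.9), had no other member probe.

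In the brightest quintile of member probes 3 probes fell and 10 rose; these were chosen for description after their values were seen. SPINK4, a secreted protease inhibitor of mucus-producing cells of the gut, had the brightest fall, from 12650 to 6823, a log2 ratio of -0.89 with an error of 0.22. PHGR1, a small protein of the gut epithelium, fell from 3450.3 to 2031, a log2 ratio of -0.76. The ALDH3A1 probe described above was the other. Among the rises TNFAIP2, a gene induced by tumour necrosis factor, went from 2591 to 4448, a log2 ratio of 0.78. CYP2C18, a cytochrome P450, went from 1521 to 2487 (0.71), and DKK1, a secreted inhibitor of Wnt signalling, from 1819.8 to 2973 (0.71). MT2A went from 2576 to 4110.2 (0.67), and its role is given with its family below. ADAT2, a subunit of a tRNA deaminase, was at 0.70 here but at -0.060 at its other probe. The other 5 probes, between 0.59 and 0.62, included CCDC9. Of the falls none was measured in both dyes in MKN74, and of the rises TNFAIP2 was at 0.31, MT2A at 0.44 and ADAT2 at 0.54 there.

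Under normexp and loess, which added 50 to both dyes and so drew the ratios of dim probes towards 0, the bright changes were close to those above and many dim ones were not past 1.5-fold. The first SETD7 probe was at -0.99, UBD at 1.26, MMP7 at 0.99, LTB at 0.82 and the IL32 probes at 0.53 and 0.76. The SERPINA3 probes were at 0.20, 0.49 and 0.35 and those of RTN4RL1 at 0.34 and 0.18, all short of 1.5-fold. TNFAIP2 was at 0.85, SPINK4 at -0.90 and PHGR1 at -0.80. SERPINB9 was at 0.53, and each probe of SERPINE2, TNFAIP3, IL11, ICAM1, PGC, OLFM4, NTRK2 and CCDC28B lay between -0.30 and 0.20. Of 48 named genes past 1.5-fold, 13 stayed past it.

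**Figure D3:**
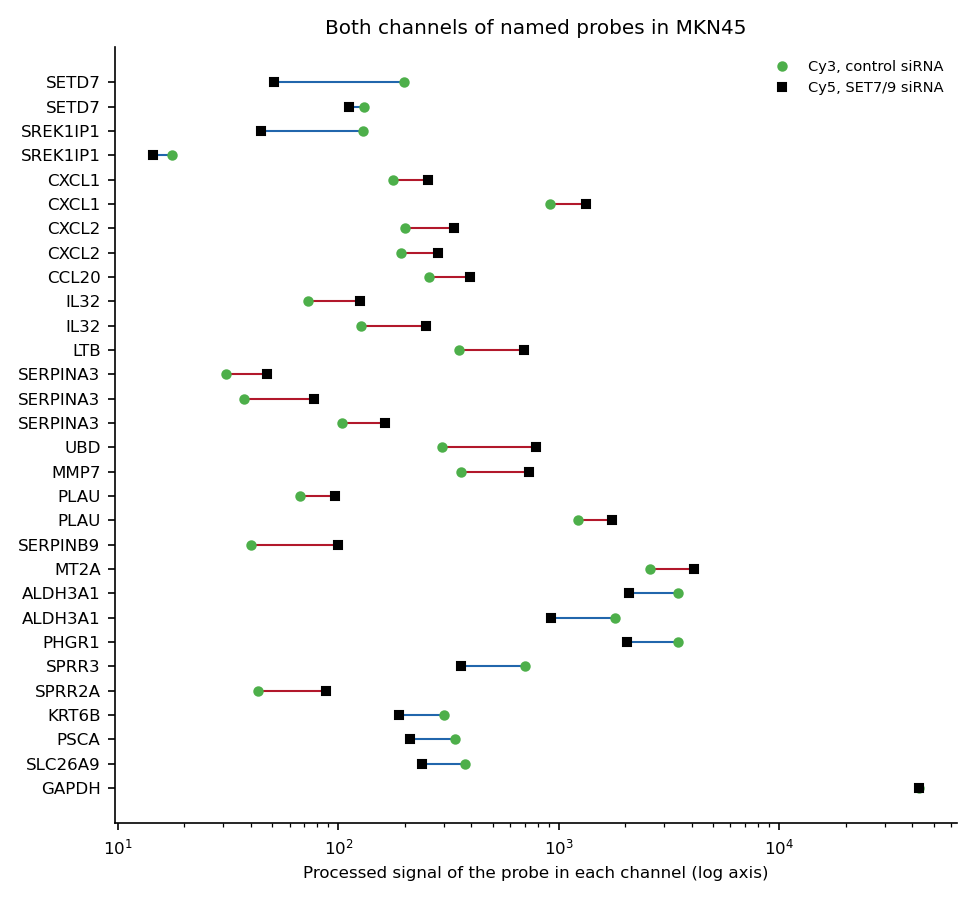
Processed signal of named probes in MKN45 on a log axis, with a circle for Cy3 (control siRNA) and a square for Cy5 (SET7/9 siRNA), 1 line per probe. Red lines mark a higher and blue lines a lower Cy5 signal, and GAPDH has both dyes at the same place.

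Gene programmes were then described by lists. A list's count past 1.5-fold is read beside the 0.754% and 1.43% of all genes, and its counts above and below 0 beside the 49.7% and 50.3% of all genes. In MKN74, of the 12983 genes measured on both arrays 71 (0.547%) were at least 1.5-fold higher and 138 (1.06%) at least 1.5-fold lower. In the chemokine list 7 of 10 measured genes were above 0, with a median log2 ratio of 0.17, and CXCL2 and CCL20 rose. Under normexp and loess the median was 0.059 and neither gene was past 1.5-fold, with the CXCL2 probes at 0.52 and 0.43 and CCL20 at 0.52. CCL20, which attracts dendritic cells and T cells to epithelia, went from 256 to 394, a log2 ratio of 0.62. CXCL3 was at 0.45, CXCL10 at 0.29 and CXCL17 at -0.25. Of 23 cytokines and receptors 16 were above 0 (median 0.12), and IL11, IL32 and LTB rose. LTB, the membrane anchor of the lymphotoxin heterotrimer, went from 353 to 695, a log2 ratio of 0.98, whereas IL11, a cytokine of the IL-6 family, was at 0.65 with signals of 20.4 and 32.0 and an error of 0.31. The IL-1 receptor IL1R1 was at -0.50.

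In the complement and acute-phase list 12 of 21 genes were above 0 (median 0.072). SERPINA3 and ICAM1, an adhesion receptor for leukocytes, rose, and CFI, the protease that inactivates complement C3b, fell from 156 to 103, a log2 ratio of -0.59. ICAM1 was at 0.68 with an SD of 0.36 over 10 dim spots. LCN2, an iron-sequestering antibacterial protein, was at 0.56, the complement protein C3 at 0.55 and CFB at 0.49, short of the cutoff. Of 21 NF-kB subunits and feedback genes 9 were above 0 and the median was -0.019. TNFAIP3, the A20 feedback inhibitor, rose at a dim probe (29.4 to 44.7, log2 ratio 0.60). The inhibitor NFKBIA and the subunit RELB were bright and at 0.46 each, from 3641 to 5016 and from 3551 to 4884. REL was at 0.40, BIRC3 at 0.36 and the subunit NFKB2 at 0.29, while the subunits RELA and NFKB1 were at -0.030 and -0.019 and the kinases CHUK and IKBKB at -0.16 and -0.070. Among other inhibitors and feedback genes, NFKBIB was at -0.10, NFKBIE at -0.019, NFKBIZ at -0.015, TNIP2 at -0.12 and CYLD at -0.19. Above 0 were TNIP1 at 0.20, BCL3 at 0.16 and TRAF3 at 0.12. With the brightest probe as the value of a gene the median of this list was 0.12.

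Promoter sequence is shown for 5 genes that were higher and hold a match to the NF-kB motif, because the NF-kB site is a known element of such promoters. The motif searched was GGG, any 3 bases, then TTCC, on both strands, in the 250 bases before each RefSeq gene start on GRCh38.p14. It is in capitals here, and where it reads on both strands the matches overlap.
CXCL1, chr4:73869143-73869392, plus strand: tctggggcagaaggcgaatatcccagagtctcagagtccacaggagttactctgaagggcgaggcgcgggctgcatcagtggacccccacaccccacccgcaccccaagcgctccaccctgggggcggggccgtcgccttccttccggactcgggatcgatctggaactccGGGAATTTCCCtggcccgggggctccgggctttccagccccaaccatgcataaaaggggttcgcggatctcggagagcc
CXCL2, chr4:74099196-74099445, minus strand: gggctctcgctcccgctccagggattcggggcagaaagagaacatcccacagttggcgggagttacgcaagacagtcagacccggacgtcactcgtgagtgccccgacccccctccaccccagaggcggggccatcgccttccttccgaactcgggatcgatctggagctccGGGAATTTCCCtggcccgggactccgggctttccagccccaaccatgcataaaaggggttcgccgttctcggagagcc
CCL20, chr2:227813592-227813841, plus strand: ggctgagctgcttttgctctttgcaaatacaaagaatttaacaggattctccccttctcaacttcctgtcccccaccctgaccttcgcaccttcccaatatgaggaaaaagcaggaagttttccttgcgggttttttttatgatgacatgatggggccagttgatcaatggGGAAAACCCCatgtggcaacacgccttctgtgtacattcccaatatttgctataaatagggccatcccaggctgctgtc
IL32, chr16:3065153-3065402, plus strand: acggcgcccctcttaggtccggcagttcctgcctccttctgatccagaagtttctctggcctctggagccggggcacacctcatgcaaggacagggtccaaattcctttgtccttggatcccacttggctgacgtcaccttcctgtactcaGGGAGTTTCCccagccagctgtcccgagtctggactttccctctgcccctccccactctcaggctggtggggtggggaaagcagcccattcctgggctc
UBD, chr6:29559733-29559982, minus strand: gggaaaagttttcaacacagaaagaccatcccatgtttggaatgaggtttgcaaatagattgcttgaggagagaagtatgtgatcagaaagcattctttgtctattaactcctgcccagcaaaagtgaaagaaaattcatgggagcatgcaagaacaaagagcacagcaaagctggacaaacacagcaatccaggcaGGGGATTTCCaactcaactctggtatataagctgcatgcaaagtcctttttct
The run GGGAATTTCCC holds the motif on both strands and starts 79 bases before the CXCL1 start and 78 before that of CXCL2. Of the 8 genes of the chemokine, cytokine, complement and NF-kB lists that rose, 5 had a match (CCL20, CXCL2, IL32, LTB and TNFAIP3), which is 62.5%, and 12 of the 53 other measured genes of these lists with a promoter entry also did (22.6%), CXCL1, CXCL3 and NFKBIA among them. Among all 27305 promoters of that table the share was 5.61%, and among 10802 measured genes 6.48%. UBD belongs to none of these 4 lists. SERPINA3, ICAM1, IL11 and, outside these lists, MMP7 had no match to these letters in this window. A match describes the sequence and is not a measured site. The 8 genes were picked by their own ratios, and the differences between these shares were not tested.

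In antigen presentation 18 of 22 genes were above 0 with a median of 0.12, and 1 rose. This was UBD, which encodes FAT10, a ubiquitin-like modifier induced by interferon and tumour necrosis factor. It went from 296 to 788, a log2 ratio of 1.41 with an error of 0.24, the highest ratio of any member probe. HLA-B and HLA-C, class I heavy chains, were at 0.061 and 0.17, and the proteasome subunit PSMB9 was at 0.29. HLA genes are close copies, so that their probes may take up RNA of one another. Of 36 interferon-stimulated genes 24 were above 0 (median 0.064). IFI6, an interferon-induced inhibitor of apoptosis, rose from 148 to 225 (log2 ratio 0.60), and IRF9, the DNA-binding part of the interferon-activated ISGF3 complex, from 207 to 314 (0.60). IFIT1 was at -0.38 and DHX58 at -0.50. RNA sensors and adaptors were above 0 in 8 of 14 (median 0.023). In MKN74 the median of the interferon-stimulated genes was -0.21 and 2 of 34 genes were above 0, with IFI6 at -0.53.

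Genes of the extracellular matrix were next. Among metalloproteinases and their inhibitors 9 of 13 were above 0 (median 0.088) and MMP7 rose. MMP7, matrilysin, a protease made by epithelial cells, went from 359 to 729.6 (log2 ratio 1.02, error 0.22). MMP1, interstitial collagenase, was at 0.55 with an SD of 0.11 over 10 spots, MMP9 at 0.25 with an SD of 0.18, and MMP11 at -0.32. In the plasminogen and serpin list 7 of 15 were above 0 (median -0.0056). SERPINB9, the intracellular inhibitor of granzyme B, rose from 40.3 to 99.7, a log2 ratio of 1.31, and SERPINE2, protease nexin, from 23.7 to 38.6 (0.71). PLAUR, the receptor of PLAU, was at -0.12. Of 20 integrin and laminin genes 14 were above 0 and none passed the cutoff; ITGB1, the beta chain common to many integrins, was at 0.41 with an SD of 0.044 over 10 spots. Junction proteins (21 of 31 above 0, median 0.031) and mesenchymal genes (6 of 10, median 0.073) had no gene past 1.5-fold.

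Genes of epithelial identity were described by 6 lists, of which 4 had a median below 0. In the list of squamous, S100 and annexin genes 15 of 22 were below 0 (median -0.17). SPRR3 and SPRR1B, precursors of the cornified envelope, fell, SPRR3 from 703 to 361 (log2 ratio -0.96) and SPRR1B from 145 to 94.1 (-0.63). SPRR2A of the same family rose from 43.1 to 87.8 (1.03); the SPRR genes are close copies, so that their signals may mix. Keratins were below 0 in 10 of 15 (median -0.078), and KRT6B, a keratin of stressed epithelium, fell from 299.7 to 189 (-0.66). KRT19, among the brightest probes at 127829 and 98535, was at -0.38. Of 21 gastric differentiation genes 13 were below 0 (median -0.060), and PSCA and PGC fell. PSCA, a surface antigen of gastric epithelium, went from 337 to 211 (-0.68). PGC, the precursor of the digestive protease pepsin C, was at -0.65 at signals of 23.5 and 14.9, with an error of 0.38. TFF2, which protects the mucosa, was at -0.33 and MUC5AC, the mucin of surface cells, at -0.36. Of the 8 gastric genes above 0, CCKBR was highest at 0.56, at a dim probe, and AQP5 was at 0.31. In the intestinal list 10 of 17 were below 0 (median -0.017), and PHGR1 and OLFM4 fell, OLFM4, a marker of stem-like cells of the crypt, from 36.6 to 17.8 (-1.04). The other lists lay the other way: mucins were above 0 in 2 of 3 (median 0.063) and solute carriers of epithelia in 7 of 13 (median 0.064). Of the solute carriers SLC26A9, an anion transporter of stomach surface cells, fell from 377 to 238 (-0.66), and its MKN74 value was 0.60.

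All 12 measured genes of the metallothionein list were above 0, with a median of 0.24. The list holds metallothioneins, which are small metal-binding proteins, and other genes such as MTF1 and SLC30A1. MT2A rose by 0.67, MT1L was at 0.43, MT1B at 0.40, MT1E at 0.33, MT1X at 0.14 and MT1H at 0.024. The probes of MT1H were on opposite sides of 0, at 0.25 and -0.20. The MT1 genes are close copies, and their probes were compared by the best ungapped overlap. In it, 8 of the 11 metallothionein probes matched a probe of another such gene at 76.7% to 91.3% of the overlapping bases. Their signals are therefore not independent. The MT2A probe matched none at more than 53.7% of the overlapping bases. In MKN74 9 of 11 were above 0, the median was 0.12 and MT2A was at 0.44.

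Sterol and fatty-acid synthesis went the other way. Of 33 genes 26 were below 0 with a median of -0.18, and none passed 1.5-fold. Most had 1 probe. SQLE, squalene epoxidase, went from 4385 to 3469 (log2 ratio -0.34), and MVK, mevalonate kinase, from 3412 to 2764 (-0.30). HMGCS1 was at -0.22, IDI1 at -0.24, CYP51A1 at -0.26, MVD at -0.36 and the transcription factor gene SREBF2 at -0.31. ACLY, which makes cytosolic acetyl-CoA, was at -0.36, whereas FASN was at 0.088 and SREBF1 at 0.011. In MKN74 the median of the list was -0.021 with 14 of 33 above 0, and SQLE was at -0.018.

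**Figure D4:**
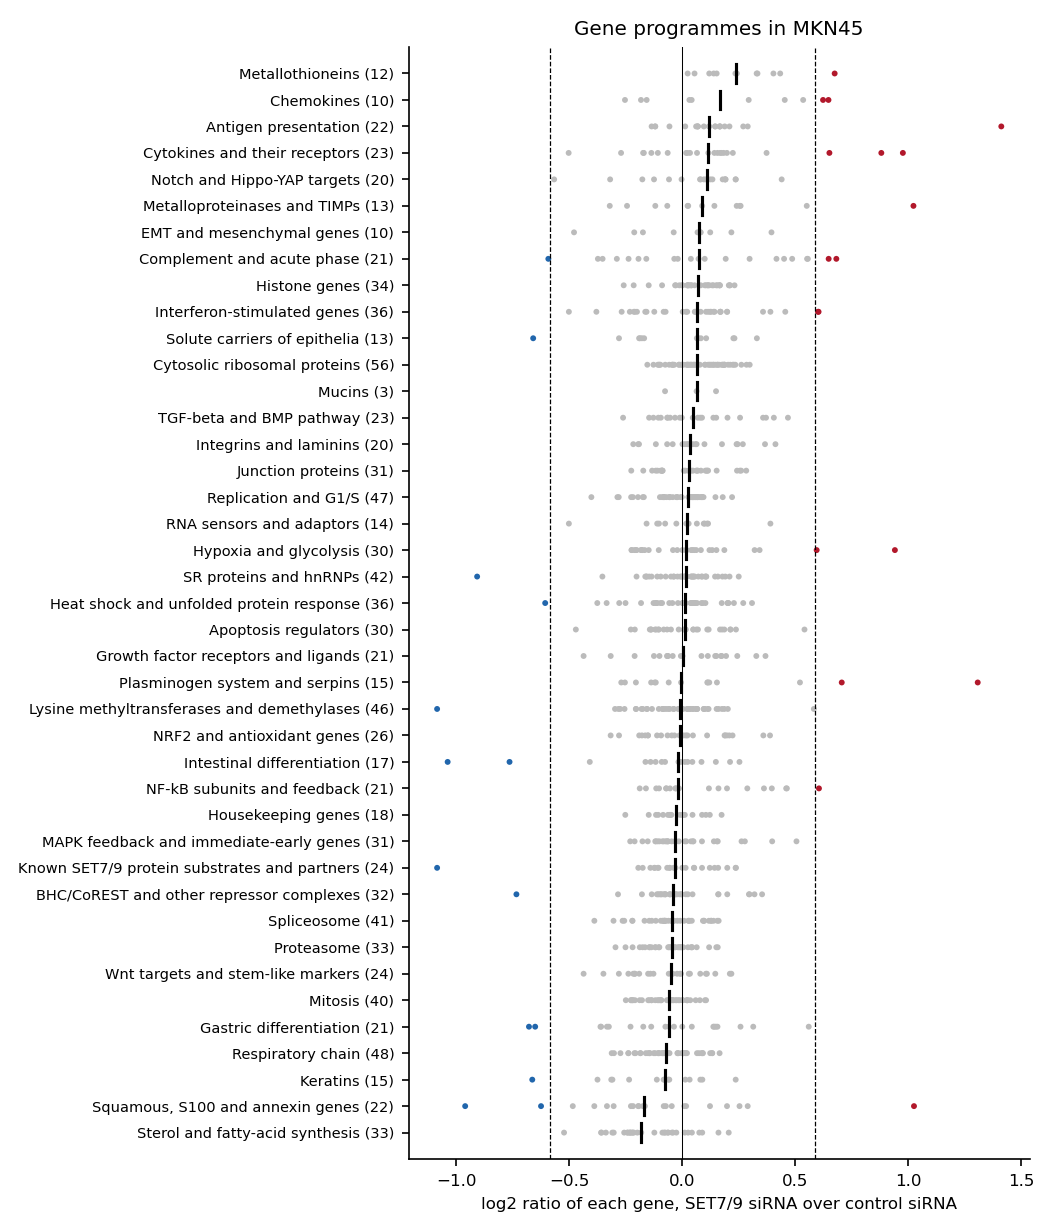
Each dot is the log2 ratio of 1 gene in MKN45, by list, with the number of measured genes in parentheses, a black tick at the median of each list and dashed lines at 1.5-fold. The medians run from -0.18 for sterol and fatty-acid synthesis to 0.24 for metallothioneins, while single genes such as UBD at 1.41 stand apart from the rest of their list.

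In proliferation and growth control few genes passed the cutoff. Mitosis genes were below 0 in 30 of 40 (median -0.058, range -0.25 to 0.11), and in MKN74 above 0 in 29 of 40 (median 0.063). Replication genes had a median of 0.027 over 47 genes. Of 24 known protein substrates and partners of SET7/9, the only one past 1.5-fold was SETD7, which is itself on that list; RELA was at -0.030 and FOXO3 at 0.24. None of 30 apoptosis regulators passed, and BCL2 was highest at 0.54 at a dim probe.

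Chromatin and RNA processing genes were mostly near 0. Among 46 lysine methyltransferases and demethylases SETD7 alone passed 1.5-fold, with a median of -1.09 over its probes, and KDM6B, an H3K27 demethylase, was at 0.58, just short of the cutoff. PHF21A, the BHC80 subunit of the CoREST repressor complex, fell from 146 to 88.0 (log2 ratio -0.73, error 0.22), and the other 31 genes of the repressor list lay between -0.28 and 0.35. SREK1IP1 was the 1 of 42 SR protein and hnRNP genes past the cutoff. Histone genes were above 0 in 26 of 34 (median 0.068), ribosomal proteins in 40 of 56 (0.064), and spliceosome genes in 14 of 41 (-0.045). The respiratory chain was below 0 in 33 of 48 (-0.070) and the proteasome in 24 of 33 (-0.048). CCDC28B, a modifier of ciliary function, was at -1.28 with signals of 38.0 and 15.6, and RASL10B, a small GTPase, at -0.85 with signals of 87.6 and 48.6.

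Signalling and stress lists held single changes. In hypoxia and glycolysis 16 of 30 were above 0 (median 0.018). ANGPTL4, an inhibitor of lipoprotein lipase, rose from 119 to 229 (log2 ratio 0.94), and ADM, the vasodilator adrenomedullin, from 433 to 653 (0.59, SD 0.061 over 10 spots). Of the glycolytic enzymes ALDOA was at -0.23, LDHA at -0.22, ENO1 at -0.21, HK1 at 0.018 and PFKP at 0.12. Of 36 heat shock and unfolded protein response genes CHAC1 fell and ATF4, which turns on CHAC1, was at -0.34. No gene passed in the lists of growth factors and receptors, MAPK feedback, TGF-beta and BMP, Wnt, Notch and Hippo, or NRF2, whose medians lay between -0.051 and 0.11. In the Notch and Hippo list HEY1, a Notch target, was at -0.57 and NRARP at 0.44. Among Wnt targets the receptor tyrosine kinase EPHB2 was lower at 3 probes, from -0.84 to -0.22.

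**Figure D5:**
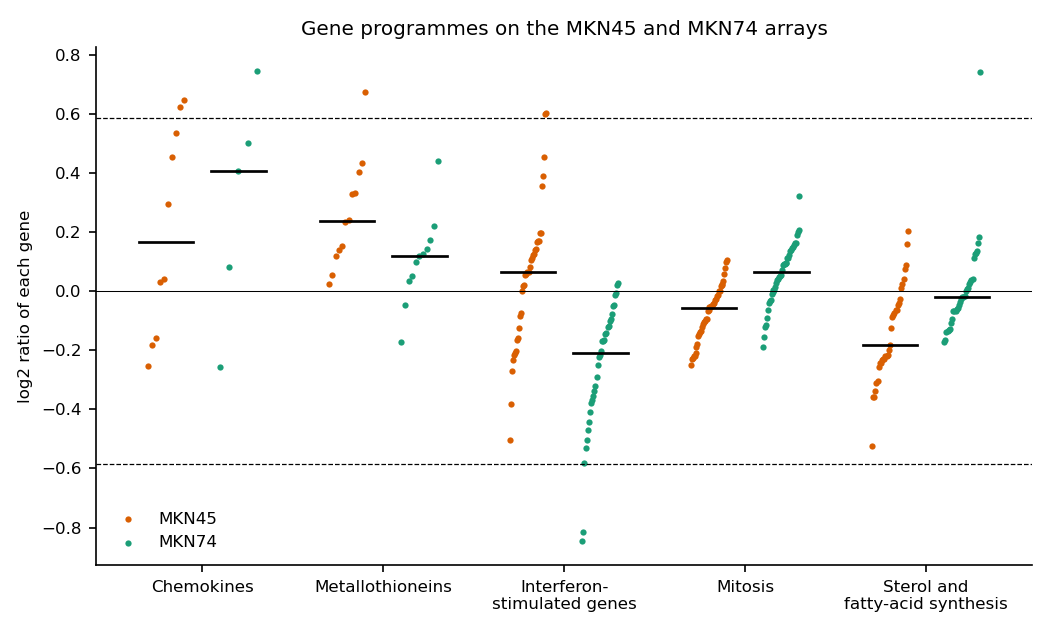
Log2 ratios of the genes of 5 lists, sorted within each list, on the MKN45 (orange) and MKN74 (green) arrays, with black bars at the medians and dashed lines at 1.5-fold. The interferon, mitosis and sterol lists have medians of 0.064, -0.058 and -0.18 in MKN45 and of -0.21, 0.063 and -0.021 in MKN74; the differences were not tested.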

How the data were processed

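The authors deposited Agilent Feature Extraction 10.7.3.1 output per array: linear intensity of each spot in each dye, background-subtracted and dye-normalized, the log10 ratio of the dyes (Cy5 to Cy3), the error of that ratio, and a p-value from the software's error model. Their value table holds log2 ratios, as deposited by the authors. Log10 ratios were multiplied into log2 units; 534 outlier spots were left out, spots of a probe averaged, and a member probe had both dyes well above background in 50% or more of the spots. A gene's value is the median over its probes. No fit or test was run. The cutoff of 1.5-fold is the study's. Genes were named by a rule: those the study selected, the top 15 multi-probe genes each way, list genes past the cutoff or at their list's extremes, examples from lists, and the largest single and disagreeing probes. Members and the 47 lists were chosen with earlier results of these data known. The RefSeq gene table (GRCh38.p14) held the accession of 17100 of 17697 member probes that have one (96.6%). Promoters are RefSeq's. Counting was checked on simulated data: of 194 changed genes among 14991, at a 2-fold change, 100% were recovered. The simulated noise was smaller than the SD of 0.37 in the dimmest quintile. The recovery therefore checks the counting steps and not the detection of changes at dim probes. Alternatives used limma 3.58.1 (R 4.3.3); the rest used Python 3.11.15. Some results are not reported here.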

Additional observations from a re-analysis of the deposited data

Results flagged for a closer look

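Some probes had only 1 dye well above background and took no part in the comparisons: in 2452 probes this was Cy5 and in 97 Cy3. A cautious fold came from taking, for the dim dye, its own signal or the weakest reliable signal of that dye on the array, whichever was higher. By this rule 116 of the 2452 probes and 86 of the 97 stayed past 1.5-fold. Because the weakest reliable signal was higher for Cy3 than for Cy5, a probe taken at that of Cy5 passed 1.5-fold by the rule itself. The smallest of the 86 bounds was 1.78-fold, and their count is therefore no support for falls. Of the probes past 1.5-fold, 9 belonged to listed genes with no member probe. With SET7/9 siRNA TNF was at least 1.78-fold higher, LOXL2 at least 1.63-fold and ITGAM at least 1.55-fold. For TGFBI, IL8, FGF2 and CD3E the probe's own Cy3 signal was above the weakest reliable one and was used. Their values of 2.62-fold, 1.68-fold, 1.62-fold and 1.54-fold higher are therefore ratios to an unreliable Cy3 signal and not bounds. LIN28A was at least 2.29-fold lower and PECAM1 at least 2.24-fold lower. Such folds and bounds used signals normalized between the arrays, and they carry any bias of the dyes, which were not swapped.

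SLC26A9 passed 1.5-fold in opposite directions in the cell lines, at -0.66 in MKN45 and 0.60 in MKN74, a difference of -1.27 on the log2 scale. SPINK5, at 0.48 in MKN45 and -0.53 in MKN74, differed by 1.004, and C5orf13, now NREP, at 0.40 and -0.47, by 0.88. In MKN74 each of these rests on 1 probe, as does SLC26A9 in MKN45, and the differences were not tested. Under normexp and loess SLC26A9 was at -0.42 in MKN45, short of 1.5-fold. The software's error of its MKN74 value was 0.22.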

How the results depend on the processing

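No paired analysis was possible because each cell line had 1 array, and no array could be left out. Under normexp and loess the counts past 1.5-fold were 27 higher and 17 lower probes, 18 and 11 genes, and 0 and 1 genes with every probe past it (61.4% of probe calls higher, against 33.5%); of 48 named genes past the cutoff 47 kept their sign, and the medians of the chemokine, fibroblast and endothelial lists were 0.059, 0.070 and 0.025. With 1 dye above background allowed, 1097 probes and 777 genes were higher (71.0% of probe calls), 16 genes had every probe past 1.5-fold higher, the leukocyte median was 0.20, and PGC was at 0.55. At 2-fold, 9 and 76 probes, 7 and 52 genes, and 0 and 0 genes with every probe past it remained (10.6% of probe calls higher). With an error-model p under 0.01 required, 94 and 162 probes were called. Without the dimmest quintile of probes, chosen after seeing the data, 64 higher and 46 lower probes (58.2% higher) and 1 and 1 genes with every probe past 1.5-fold were left, and the leukocyte median was 0.20. With every probe required to lie 0.32 or more from 0, 29 and 15 genes were one-way. With the brightest probe per gene the NF-kB median was 0.12, and FLJ35390 was at 0.25 and TP53TG3 at 0.39; FLJ35390 was at 0.065 under normexp and loess. Median centring, the deposited table, keeping outlier spots, and using only spots with both dyes above background changed no count by more than 1.5 times, turned no called gene, and moved no list median by as much as the SD of repeated spots.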
